A study of Mus musculus with 24 samples.

Results

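Ferritin, the carriers of iron, the iron regulatory proteins and the metallothioneins were followed in HY19636, a mouse pancreatic ductal adenocarcinoma (PDAC) line. The members were 10 genes taken by symbol from a table of 54532 genes: the ferritin chains Fth1 and Ftl1, the transferrin receptor Tfrc, the iron exporter Slc40a1 (ferroportin), the iron importer Slc11a2 (DMT1), the iron regulatory proteins Aco1 and Ireb2, the metallothioneins Mt1 and Mt2, and the zinc exporter Slc30a1. They were grouped by function, with earlier results of these data known. All 10 were present, and 9 passed the filter on low values and were tested; Mt2 did not.

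The study crossed 3 factors: wild-type (WT) or Phgdh-knockout (KO) cells, medium with serine and glycine (here replete) or free of both (here deprived), and growth alone (monoculture) or together with hepatocytes (coculture). That gave 8 groups of 3 RNA-seq libraries, 24 in all. Phgdh encodes the enzyme that commits a glycolytic intermediate to serine synthesis, and the series' title concerns serine that hepatocytes supply to pancreatic cancer in the liver. The labels do not say how the knockout was made, whether it was 1 clone, how the cells were parted from the hepatocytes, or whether replicates came from separate cultures. The p-values therefore set a difference between group means against the scatter of libraries within groups, pooled over all 8 groups. That scatter may be technical.

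Cells store iron inside ferritin, a shell built of heavy chains (Fth1, which oxidise the iron) and light chains (Ftl1). Iron enters through transferrin bound to its receptor and through DMT1, and leaves through ferroportin. The proteins made by Aco1 and Ireb2 bind a short RNA hairpin, the iron-responsive element, when iron is scarce: at the start of ferritin and ferroportin messages they block translation, and in the tail of the Tfrc message they protect the RNA from decay. Much of this control therefore acts on translation and is not seen in transcript levels. Metallothioneins are small cysteine-rich proteins that bind zinc and copper, and their genes respond to zinc through the factor Mtf1.

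The hairpin is shown because the iron regulatory proteins bind it and because its place in the message, at the start or in the tail, differs between members. The annotated untranslated regions of the members (GENCODE vM21, GRCm38, read along the transcript strand) were searched for a C, 5 stem bases, the loop CAGTGN in which N is not G, and 5 bases able to pair with the first stem, G-T pairs included. The loop is in capitals.
Fth1, 5′ UTR, chr19:9982732-9982760, plus strand: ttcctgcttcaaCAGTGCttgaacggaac
Ftl1, 5′ UTR, chr7:45459779-45459807, minus strand: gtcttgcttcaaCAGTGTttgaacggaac
Slc40a1, 5′ UTR, chr1:45925465-45925493, minus strand: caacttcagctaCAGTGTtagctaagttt
Tfrc, 3′ UTR, chr16:32631219-32631247, plus strand: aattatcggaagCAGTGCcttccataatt
Tfrc, 3′ UTR, chr16:32631598-32631626, plus strand: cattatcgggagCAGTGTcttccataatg
Tfrc, 3′ UTR, chr16:32631663-32631691, plus strand: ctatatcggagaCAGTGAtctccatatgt
Tfrc, 3′ UTR, chr16:32631710-32631738, plus strand: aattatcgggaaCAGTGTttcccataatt
Tfrc held 4 matches and Fth1, Ftl1 and Slc40a1 held 1 each. The element lay in 4 of 5 annotated protein-coding transcripts of Fth1, 1 of 2 of Ftl1, 1 of 4 of Slc40a1 and 1 of 3 of Tfrc. Slc11a2, Aco1, Ireb2, Mt1, Mt2 and Slc30a1 had 0 matches, which says only that these letters are not in their annotated untranslated regions. The search misses a hairpin with an unpaired base among the 5 stem bases, so 0 matches do not show that a gene lacks the element. Over 21901 protein-coding genes the letters occurred in the 5′ UTR of 0.1% and in the 3′ UTR of 0.452%. A match is a description of sequence and does not show binding in these cells.

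Libraries held 15740081 to 23479425 reads on genes. Phgdh itself read 789 to 1410 FPKM (fragments counted per gene, corrected for gene length and library size) in WT and 372 to 885 FPKM in KO libraries, so its transcript was present in every library labelled KO. Its log2 change from WT to KO was −0.95, −0.57 and −0.88 in replete monoculture, replete coculture and deprived coculture (limma adjusted p = 1.85e-06, 0.000504 and 3.13e-06), and −0.21 in deprived monoculture (adjusted p = 0.115), where the groups' ranges still did not overlap. Replicate 1 stood apart from replicates 2 and 3 in both the replete and the deprived KO monocultures. So did replicates 1 and 2 of the deprived KO cocultures for some members. Member calls that rest on these libraries are given with and without them. Phgdh and the genes of the lists below are given with all libraries only. The 7 markers of ductal carcinoma cells (Krt7, Krt8, Krt18, Krt19, Cdh1, Sox9 and Epcam, the last below the filter) summed to 1125 to 4598 FPKM, and went from 1620 to 1858 in replete to 4397 to 4598 in deprived KO monocultures. Their sum also shifted in coculture. In WT cells it went from 1135 to 1186 up to 2296 to 2394 (replete) and from 1125 to 1197 up to 2231 to 2387 (deprived). Replete KO cocultures were higher than monocultures, at 3503 to 3532, and deprived ones lower, at 3832 to 4138. The 18 hepatocyte markers summed to 0.367 to 1.16 FPKM in cocultures and 0.0817 to 1.16 in monocultures, and albumin gave 10 reads over all 24 libraries. The hepatocyte markers were thus at or near 0 also in the cocultures, with Fga, Fgb and Cyp2e1 at 0 reads. The 14 macrophage markers summed to 7.12 to 9.81 FPKM in WT and 0.521 to 4.89 in KO libraries, lowest in deprived KO monocultures (0.521 to 1.05); Cd68 was their only tested gene, and Adgre1, Vsig4 and Timd4 had 0 reads. Endothelial markers summed to at most 2.86 FPKM, those of stellate cells and fibroblasts to 2.58, and erythroid ones to 0.923. The part of these shifts in the results was not tested.

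All changes below are on the log2(FPKM + 1) scale, with the standard error (SE) after ±, from limma with Benjamini-Hochberg adjustment over 12061 genes; a gene was called at an adjusted p under 0.05. That scale understates changes of genes with low FPKM. Levels are FPKM, as a mean ± SD over 3 libraries. FPKM is per length, so levels can be set side by side between genes only as far as the gene lengths used hold. In bulk RNA, fewer cells of a type and less RNA per cell cannot be told apart.

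**Figure D1:**
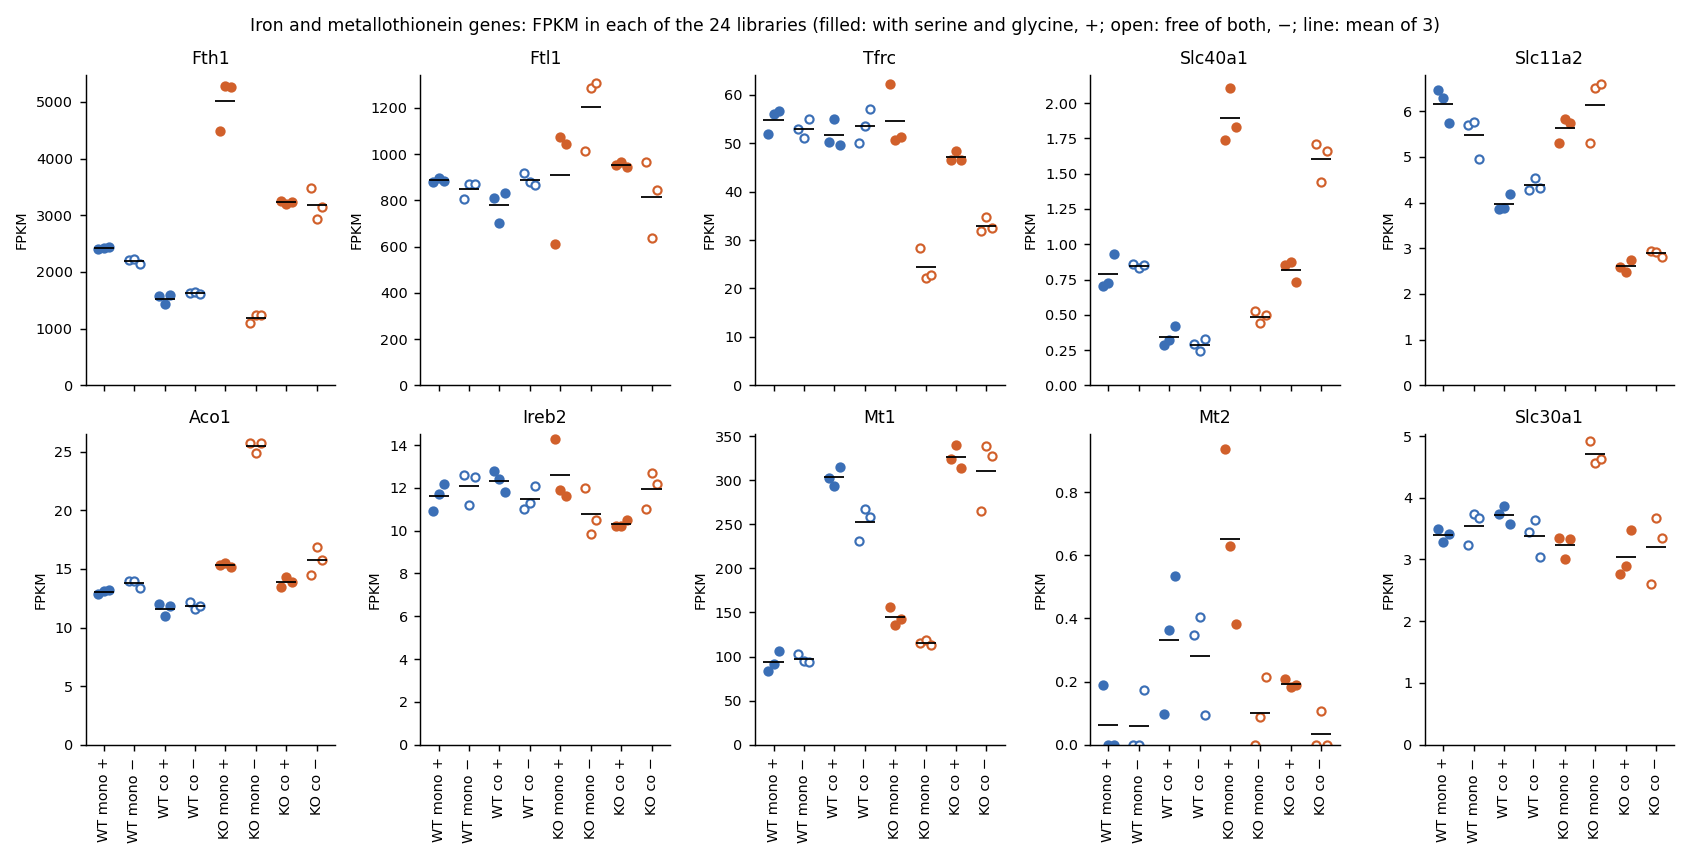
Level (FPKM, linear axes from 0) of each of the 10 genes in the 24 libraries, by genotype (WT blue, KO orange), culture (mono, co) and medium (filled and +, replete; open and −, deprived), with lines at the mean of 3. Fth1 ran from 1193 in deprived to 5012 in replete KO monocultures on average, Mt1 was higher in all 12 coculture libraries than in any monoculture, and Mt2 stayed under 1 FPKM.

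On withdrawal of serine and glycine in KO monocultures Fth1 moved more than any other tested member. Fth1 (ENSMUSG00000024661, chr19:9982703-9985092, GRCm38) had 2409, 2426 and 2437 FPKM in replete and 2202, 2231 and 2132 in deprived WT monocultures. In KO monocultures it had 4491, 5273 and 5271 FPKM in replete and 1091, 1241 and 1247 in deprived medium. KO cells thus held both the highest and the lowest Fth1 levels of the study, and in KO monocultures every deprived library lay far below every replete one.

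The fall in KO monocultures was −2.07 ± 0.07 (limma adjusted p = 3.08e-15), from 5012 ± 451 to 1193 ± 88.2 FPKM (SD, n = 3), or 4.2-fold. WT monocultures changed by −0.15 ± 0.07 (adjusted p = 0.415), and the withdrawal effect differed between the genotypes by −1.92 ± 0.10 (limma interaction, adjusted p = 4.79e-12). The genotypes stood in opposite order in the 2 media. In replete monoculture Fth1 was 2.07-fold higher in KO than in WT cells (1.04 ± 0.07, adjusted p = 5.27e-10), and in deprived monoculture it was 1.83-fold lower (−0.88 ± 0.07, adjusted p = 8.52e-10).

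Beside hepatocytes the response of Fth1 to withdrawal was not detected. KO cocultures had 3256, 3193 and 3227 FPKM in replete and 3473, 2941 and 3151 in deprived medium, which overlap. The change was −0.02 ± 0.07 (limma adjusted p = 0.853), and it differed from that of KO monocultures by 2.05 ± 0.10 (interaction, adjusted p = 2.51e-12). WT cocultures had 1572, 1426 and 1593 FPKM in replete and 1636, 1652 and 1613 in deprived medium. Fth1 was higher in KO than in WT cells in both coculture media (1.08 ± 0.07 and 0.96 ± 0.07, adjusted p = 2.98e-10 and 8.99e-10). Coculture lowered Fth1 in WT cells in replete and deprived medium (−0.66 ± 0.07 and −0.42 ± 0.07, adjusted p = 3.59e-07 and 0.000107) and in replete KO cells (−0.63 ± 0.07, adjusted p = 5.7e-07). In deprived KO cells it went the other way, with a 2.67-fold rise (1.42 ± 0.07, adjusted p = 7.26e-13).

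Ftl1, the light chain, varied far less than Fth1. The group means of Ftl1 (ENSMUSG00000050708, chr7:45457944-45459884, minus strand) spanned 780 ± 69.6 to 1204 ± 164 FPKM, a ratio of 1.54 against 4.2 for Fth1. KO monocultures had 612, 1073 and 1042 FPKM of Ftl1 in replete and 1014, 1287 and 1309 in deprived medium. The ranges overlap, and replicate 1 is the low library in each group.

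Ftl1 rose on withdrawal in KO monocultures by 0.44 ± 0.16 (limma adjusted p = 0.0226), the opposite direction to Fth1. That call rested on single libraries: without replicate 1 of the replete group the change was 0.18 (adjusted p = 0.214), and it was also lost without replicate 2 or 3 of the deprived group (adjusted p = 0.0752 and 0.0835), without the low-value filter (adjusted p = 0.0566) and with a fit of only these groups (adjusted p = 0.169). In deprived monoculture Ftl1 was higher in KO than in WT cells (0.50 ± 0.16, adjusted p = 0.0108), 1204 ± 164 against 848 ± 37.4 FPKM with ranges apart. The deprived KO cells had less Ftl1 in coculture than in monoculture (−0.57 ± 0.16, adjusted p = 0.00435). In those cocultures the libraries read 967, 638 and 844 FPKM, with replicate 2 low. None of the other 2-group comparisons of Ftl1 was called; KO against WT in replete coculture (0.29 ± 0.16, adjusted p = 0.16) was called with quantile normalization (0.38, adjusted p = 0.0389) and with a fit of only these groups (adjusted p = 0.0091). The withdrawal effect in monoculture differed between genotypes by 0.51 ± 0.23 (interaction, adjusted p = 0.0669), which was called without replicate 2 or 3 of the replete or replicate 1 of the deprived KO monocultures (0.0223, 0.0308 and 0.0314) and with quantile normalization (0.0386).

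The balance of the chains is given as the ratio of Fth1 to Ftl1 FPKM in each library, with no test. It was 2.7 to 2.75 in replete and 2.45 to 2.74 in deprived WT monocultures. Replete KO monocultures stood at 4.91 to 7.34, with replicate 1 at 7.34, and deprived ones at 0.952 to 1.08. By FPKM the chains were thus near parity in deprived KO monocultures, and every other library had a higher FPKM for the heavy than for the light chain. The level of this ratio rests on the gene lengths used, 866 bases for Fth1 and 1340 for Ftl1. In reads, the deprived KO monocultures together had 54526 for Fth1 and 85072 for Ftl1. In coculture the ratio was 1.79 to 2.03 in WT and 3.31 to 4.61 in KO cells over both media.

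**Figure D2:**
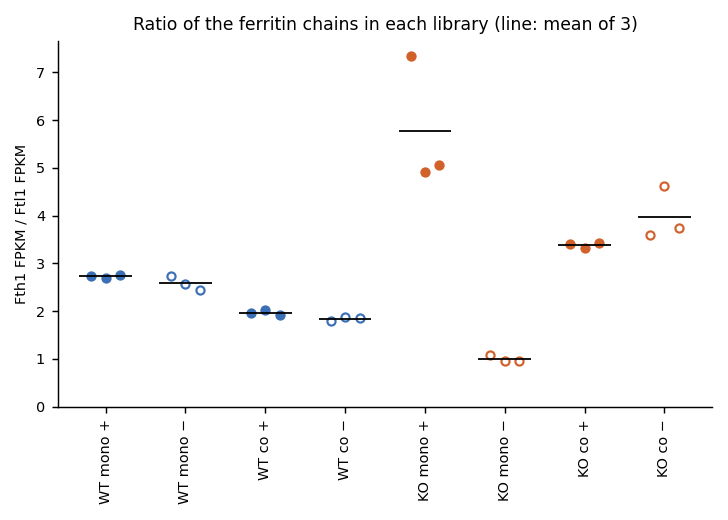
Ratio of Fth1 FPKM to Ftl1 FPKM in each library (points) with the mean of 3 (line), by genotype, culture and medium (filled and +, replete; open and −, deprived). Deprived KO monocultures lie at 0.952 to 1.08 and replete ones at 4.91 to 7.34.

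Ferritin reads carry an uncertainty, because the genome holds processed copies of these genes and no source used here says how reads that fit several places were counted. The copy Ftl1-ps1 on chromosome 13 read 7.76 to 21.2 FPKM. Its group means went from 14.9 ± 6.22 in replete to 20.4 ± 1.06 in deprived KO monocultures. The other copies measured (Ftl2-ps, Ftl1-ps2, Fth-ps2 and Fth-ps3) stayed at or under 1.06 FPKM, and Mt3, Mt4 and the Fthl17 genes were at 0. Gm10252, which overlaps Ftl1 on the other strand, read 0.296 to 2.39 FPKM, and whether counting used strand is also unknown here. The position of Fth1 in the table differs from that in vM21, while those of the other 9 members are the same.

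Tfrc, which brings in transferrin-bound iron, was steady in WT cells and fell on withdrawal in KO cells. Tfrc (ENSMUSG00000022797, chr16:32608920-32632794) had 62.2, 50.6 and 51.3 FPKM in replete and 28.4, 22.1 and 22.8 in deprived KO monocultures. In KO cocultures it had 46.5, 48.5 and 46.6 FPKM in replete and 31.8, 34.8 and 32.4 in deprived medium. All deprived KO libraries lay below all others of the study. WT group means spanned only 51.6 ± 2.92 to 54.9 ± 2.59 FPKM with overlapping ranges.

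The fall was −1.13 ± 0.08 in KO monoculture (limma adjusted p = 4.51e-10), 2.24-fold, and −0.51 ± 0.08 in KO coculture (adjusted p = 0.000229), 1.43-fold. The response was smaller in coculture than in monoculture by 0.63 ± 0.12 (interaction, adjusted p = 0.000185). It also differed from that of WT cells, by −1.08 ± 0.12 in monoculture and −0.56 ± 0.12 in coculture (adjusted p = 2.27e-07 and 0.00477). Deprived KO cells had less Tfrc than deprived WT cells, alone (−1.09 ± 0.08, adjusted p = 5.91e-10) and beside hepatocytes (−0.68 ± 0.08, adjusted p = 1.44e-06). In replete medium the genotypes were not called different (−0.01 ± 0.08 and −0.13 ± 0.08, adjusted p = 0.941 and 0.25). Hepatocytes raised Tfrc in deprived KO cells (0.42 ± 0.08, adjusted p = 0.000182), 24.5 ± 3.45 to 33 ± 1.57 FPKM. In replete KO cells the coculture change of Tfrc was −0.20 ± 0.08 (adjusted p = 0.0657), and it was called with quantile normalization and with voom on the recovered reads (−0.28 in each, adjusted p = 0.0213 and 0.00531) and without replicate 2 or 3 of the replete KO monocultures (adjusted p = 0.0362 and 0.0493).

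Slc40a1 encodes ferroportin, the exporter of iron, and was expressed at a low level throughout. Slc40a1 (ENSMUSG00000025993, chr1:45908068-45926523, minus strand) had 3587 reads in all 24 libraries and never exceeded 2.11 FPKM. It passed the filter only through replete KO monocultures (1.74, 2.11 and 1.83 FPKM) and deprived KO cocultures (1.71, 1.44 and 1.66 FPKM). A gene that enters through its high groups has to differ between groups, so its calls are given as a description. Deprived KO monocultures read 0.525, 0.439 and 0.495 FPKM, and replete KO cocultures 0.856, 0.871 and 0.73.

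Slc40a1 thus fell on withdrawal in KO monocultures (−0.96 ± 0.07, limma adjusted p = 6.84e-10) and rose on withdrawal in KO cocultures (0.52 ± 0.07, adjusted p = 4.38e-05). The difference between these effects was 1.48 ± 0.10 (interaction, adjusted p = 6.31e-10). WT cells read 0.701 to 0.934 FPKM in monoculture and 0.243 to 0.424 in coculture, in both media together. Coculture lowered it in WT cells (−0.41 ± 0.07 replete and −0.52 ± 0.07 deprived, adjusted p = 0.000245 and 1.8e-05) and in replete KO cells (−0.67 ± 0.07, adjusted p = 5.73e-07), and raised it in deprived KO cells (0.81 ± 0.07, adjusted p = 8.01e-09). KO cells had more than WT cells except in deprived monoculture, where the change of −0.32 ± 0.07 (adjusted p = 0.000771) was lost with quantile normalization (−0.07, adjusted p = 0.404). With a pseudocount of 0.1 in place of 1 the fall of Slc40a1 on withdrawal in KO monocultures was −1.77, its rise in KO cocultures 0.89 and its excess in KO over WT deprived cocultures 2.14 (against 1.02 ± 0.07, adjusted p = 9.43e-10), and the calls did not change.

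Slc11a2, the importer DMT1, fell in coculture in all 4 settings, and none of its withdrawal effects was called. Slc11a2 (ENSMUSG00000023030, chr15:100387898-100425072, minus strand) had 5.31, 5.83 and 5.75 FPKM in replete KO monocultures and 2.6, 2.49 and 2.74 in replete KO cocultures. Deprived KO cells had 5.3, 6.52 and 6.6 FPKM alone and 2.94, 2.93 and 2.82 beside hepatocytes. In WT cells it had 6.46, 6.3 and 5.75 FPKM alone and 3.87, 3.88 and 4.18 beside hepatocytes in replete medium. Every coculture library lay below every monoculture library.

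Coculture lowered Slc11a2 in all 4 settings: by −0.53 ± 0.07 and −0.27 ± 0.07 in replete and deprived WT cells (limma adjusted p = 6.05e-06 and 0.00616) and by −0.88 ± 0.07 and −0.87 ± 0.07 in replete and deprived KO cells (adjusted p = 4.66e-09 and 9.04e-10), 2.16-fold and 2.12-fold. In replete medium the KO fall exceeded the WT fall by −0.35 ± 0.10 (interaction, adjusted p = 0.0257), which was lost without replicate 3 of either replete WT group (adjusted p = 0.0737 for monoculture and 0.0634 for coculture) or without replicate 1 or 2 of the replete KO cocultures (0.0529 and 0.0657). KO cells had less than WT cells in coculture (−0.46 ± 0.07 replete and −0.47 ± 0.07 deprived, adjusted p = 1.71e-05 and 1.18e-05). No withdrawal effect on Slc11a2 was called; in KO monoculture it was 0.10 ± 0.07 (adjusted p = 0.188), and 0.19 (adjusted p = 0.0126) without replicate 1 of the deprived group. The same omission gave a call between KO and WT cells in deprived monoculture (0.14 ± 0.07, adjusted p = 0.0759; 0.23, adjusted p = 0.00373), as did quantile normalization (0.21, adjusted p = 0.0103).

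Aco1 and Ireb2 encode iron regulatory proteins; Aco1 is a cytosolic aconitase when it carries an iron-sulfur cluster, and Ireb2 is controlled mainly by degradation of its protein. Aco1 (ENSMUSG00000028405, chr4:40143081-40198338) had 15.3, 15.5 and 15.2 FPKM in replete and 25.8, 24.9 and 25.8 in deprived KO monocultures. In WT monocultures it had 12.9, 13.1 and 13.2 FPKM in replete and 14, 14 and 13.4 in deprived medium. Deprived KO monocultures stood above all other groups, and no other group mean passed 15.7 FPKM.

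Aco1 rose on withdrawal in KO monocultures by 0.70 ± 0.05 (limma adjusted p = 1.15e-10), 1.66-fold, which exceeded the WT change of 0.07 ± 0.05 (adjusted p = 0.633) by 0.63 ± 0.07 (interaction, adjusted p = 1.58e-07). In KO coculture the rise was 0.16 ± 0.05 (adjusted p = 0.0156), smaller than alone by −0.53 ± 0.07 (interaction, adjusted p = 1.55e-06). That small rise was lost without replicate 1 of the replete or replicate 2 of the deprived KO cocultures (adjusted p = 0.0662 and 0.11) and with a fit of only these groups (adjusted p = 0.145). Its excess over the WT coculture change (0.13 ± 0.07, adjusted p = 0.186) was called without replicate 1 of the deprived KO cocultures (0.19, adjusted p = 0.0371). KO cells had more Aco1 than WT cells in all 4 settings: by 0.22 and 0.84 in replete and deprived monoculture (adjusted p = 0.00117 and 5.01e-12) and by 0.24 and 0.37 in replete and deprived coculture (adjusted p = 0.000381 and 2.09e-06). Coculture lowered Aco1 most in deprived KO cells (−0.66 ± 0.05, adjusted p = 2.3e-10), to 15.7 FPKM. The other coculture falls of Aco1 were small: −0.16 in replete WT (adjusted p = 0.0163, and 0.0542 and 0.0919 without replicate 3 of the monocultures or replicate 2 of the cocultures), −0.20 in deprived WT (adjusted p = 0.00385) and −0.13 in replete KO cells (adjusted p = 0.036). That last fall was lost with the replicate block (adjusted p = 0.0519), with a fit of only these groups (0.15), and without any of the 3 monoculture libraries or replicate 1 or 3 of the cocultures (0.052 to 0.126).

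Ireb2 (ENSMUSG00000032293, chr9:54863789-54912530) was the flattest tested member, with group means of 10.3 to 12.6 FPKM, a ratio of 1.22. Each group's range overlapped that of the next in order. Ireb2 fell in replete KO coculture against monoculture (−0.26 ± 0.08, limma adjusted p = 0.0121), was lower in KO than in WT replete cocultures (−0.24 ± 0.08, adjusted p = 0.0181) and fell on withdrawal in KO monocultures (−0.20 ± 0.08, adjusted p = 0.0263). Each of these calls was lost without replicate 1 of replete KO monocultures (adjusted p = 0.0815 and 0.177 for the first and last) or of the replete cocultures (0.0678 for WT and 0.0521 for KO, for the second). The last was also lost without replicate 2 or 3 of the deprived KO monocultures (0.136 and 0.0731), and the first and last with a fit of only these groups (0.0912 and 0.166). Further effects on Ireb2 lay near the threshold and gained a call when 1 library was left out. In deprived monoculture the difference of −0.15 ± 0.08 between KO and WT cells (adjusted p = 0.0832) had adjusted p = 0.0391 without replicate 2 of the WT and 0.0173 without replicate 1 of the KO group, and was also called with quantile normalization and voom (0.0238 and 0.00858). Without replicate 1 of the deprived KO cocultures the KO coculture change on withdrawal (0.20 ± 0.08, adjusted p = 0.0641) had 0.0252, the coculture change in deprived KO cells (0.14 ± 0.08, adjusted p = 0.118) 0.0461 and the KO minus WT difference of coculture withdrawal effects (0.30 ± 0.11, adjusted p = 0.0776) 0.0316. The coculture change in deprived KO cells was also called without replicate 1 of the monocultures (0.0258). The genotype difference of the coculture effect in replete medium (−0.35 ± 0.11, adjusted p = 0.0534) was called without replicate 2 or 3 of the replete KO monocultures (0.0381 and 0.0348).

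Mt1 was higher in coculture than in monoculture in all 4 settings. Mt1 (ENSMUSG00000031765, chr8:94179082-94180327) had 83.1, 91.4 and 106 FPKM in replete WT monocultures and 303, 294 and 315 in cocultures. In deprived WT cells it had 103, 94.5 and 93.4 FPKM alone and 231, 268 and 258 beside hepatocytes. KO cells had 156, 136 and 143 FPKM alone and 324, 340 and 314 beside hepatocytes in replete medium, and 115, 119 and 113 against 265, 339 and 328 in deprived medium. All 12 coculture libraries lay above all 12 monoculture libraries.

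Mt1 rose in coculture by 1.70 ± 0.09 in replete WT (limma adjusted p = 1.18e-11), 1.37 ± 0.09 in deprived WT (adjusted p = 3.67e-10), 1.17 ± 0.09 in replete KO (adjusted p = 3.42e-09) and 1.41 ± 0.09 in deprived KO cells (adjusted p = 3.39e-11), which is 2.25- to 3.25-fold. The hepatocyte marker sum, given above, was at or near 0 in these cocultures. In replete medium the rise was smaller in KO than in WT cells by −0.53 ± 0.13 (interaction, adjusted p = 0.0107). KO monocultures started higher, at 145 ± 10.1 against 93.4 ± 11.4 FPKM (0.63 ± 0.09, adjusted p = 1.15e-05), and the replete cocultures of the genotypes were not called different (0.10 ± 0.09, adjusted p = 0.396).

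Mt1 fell on withdrawal in KO monocultures (−0.32 ± 0.09, limma adjusted p = 0.00351), and this change differed from that of WT cells by −0.38 ± 0.13 (interaction, adjusted p = 0.0137; 0.0509 without replicate 1 of both KO monoculture groups). The change in WT cocultures, −0.27 ± 0.09, did not pass the test (adjusted p = 0.25) although the ranges were apart. In deprived medium Mt1 was higher in KO than in WT cells by 0.25 ± 0.09 alone (adjusted p = 0.017) and by 0.29 ± 0.09 beside hepatocytes (adjusted p = 0.0102). The first was lost with quantile normalization (0.02, adjusted p = 0.886), with voom (0.18, adjusted p = 0.0843), without replicate 2 or 3 of the deprived WT monocultures (0.0518 and 0.0588) and without replicate 2 of the KO ones (0.0511). The second was lost without replicate 1 of the deprived WT or replicate 2 of the deprived KO cocultures (0.0614 and 0.0632) and with a fit of only these groups (0.0787). The KO withdrawal effects on Mt1 in coculture and monoculture differed by 0.24 ± 0.13 (interaction, adjusted p = 0.108), and this was called without replicate 1 of the deprived KO cocultures (0.35, adjusted p = 0.0122) and with quantile normalization (0.59, adjusted p = 0.00302).

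Mt2, the close neighbour of Mt1 on chromosome 8, was nearly silent. Mt2 (ENSMUSG00000031762, chr8:94172664-94173568) lies 5513 bases from Mt1 and gave 57 reads over the 24 libraries, against 111509 for Mt1. It had 0 reads in 7 libraries and at most 9 in any. A count of 0 allows up to 3 reads, which is 0.272 to 0.294 FPKM in those 7 libraries; this covers counting error only. Mt2 summed to 11 reads in replete and 9 in deprived WT cocultures, and to 2 reads in each group of WT monocultures. Among KO cells the replete monocultures had the most, 23 reads, against 6 in replete cocultures, 3 in deprived monocultures and 1 in deprived cocultures. With no filter on low values, KO exceeded WT in replete monoculture (0.63, limma adjusted p = 0.00166) and Mt2 fell on withdrawal in KO monoculture (−0.58, adjusted p = 0.00151), and in replete medium KO cocultures had less than KO monocultures (−0.45, adjusted p = 0.0203), all at 9 reads or fewer a library. The rises in WT coculture did not pass this test (0.32 and 0.27, adjusted p = 0.146 and 0.238).

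Slc30a1 exports zinc across the plasma membrane. Slc30a1 (ENSMUSG00000037434, chr1:191906767-191913247) had 3.35, 3.01 and 3.33 FPKM in replete and 4.92, 4.57 and 4.63 in deprived KO monocultures. The deprived KO monocultures lay above every other library, and the other group means spanned 3.04 to 3.73 FPKM. Slc30a1 rose on withdrawal there by 0.43 ± 0.08 (limma adjusted p = 0.000145), 1.46-fold, which differed from the change in WT monoculture by 0.38 ± 0.12 and from that in KO coculture by −0.38 ± 0.12 (interactions, adjusted p = 0.00909 and 0.011; the latter 0.0511 with a fit of only these groups). In deprived medium it was higher in KO than in WT monocultures (0.33 ± 0.08, adjusted p = 0.00175) and lower in KO coculture than in KO monoculture (−0.45 ± 0.08, adjusted p = 0.000101). Slc30a1 did not share the coculture rise of Mt1: the change was 0.10 ± 0.08 in replete WT, −0.06 ± 0.08 in deprived WT and −0.07 ± 0.08 in replete KO cells, none called. In replete coculture the difference of −0.23 ± 0.08 between KO and WT cells (adjusted p = 0.0344) was lost in 6 of 14 alternatives, 4 of them the omission of a single library (replicate 1 or 2 of either group, adjusted p = 0.074 to 0.146), besides no filter (0.0664) and quantile normalization (0.127).

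**Figure D3:**
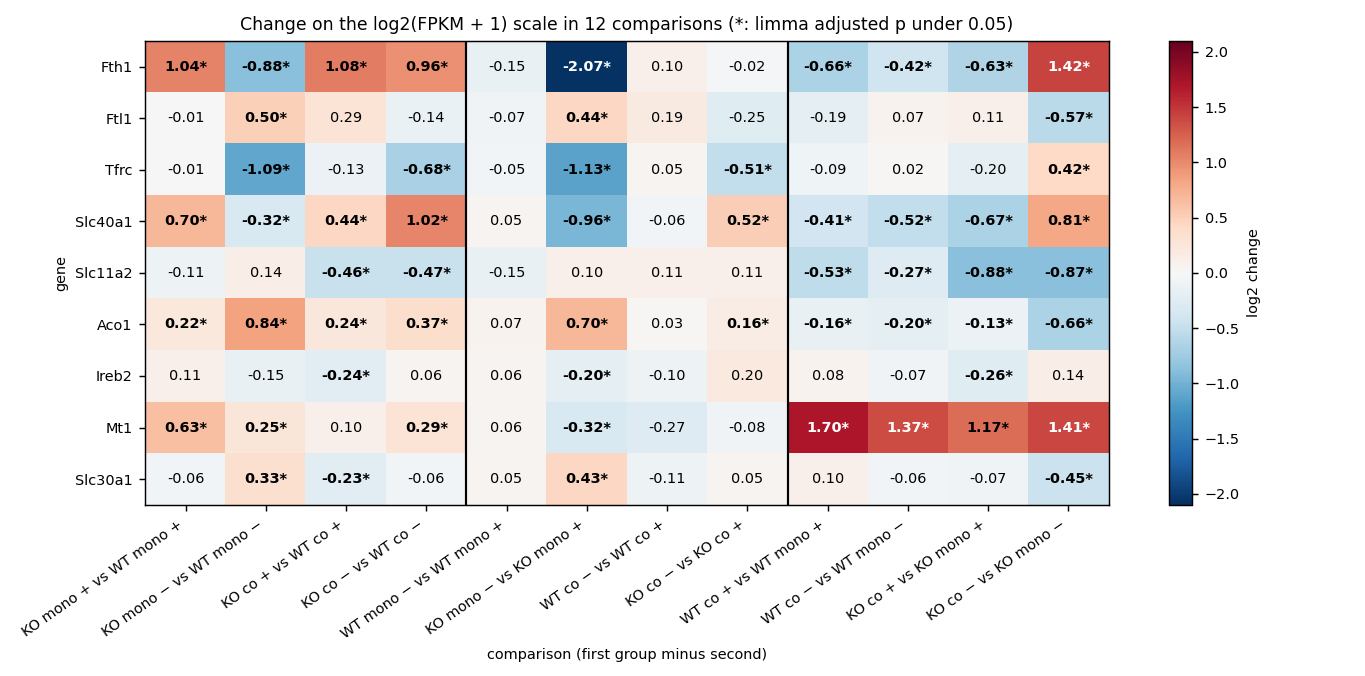
Change on the log2(FPKM + 1) scale (first group minus second) of the 9 tested members in the 12 comparisons, printed in each cell and coloured from blue (lower) to red (higher); bold with a star marks a limma adjusted p under 0.05. The WT withdrawal columns hold no call, the Mt1 row is positive in the 4 coculture columns (1.17 to 1.70), and Slc11a2 is negative in the same columns (−0.27 to −0.88).

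Counts of called members are given beside the share of all 12061 tested genes called in the same comparison. Between KO and WT cells, 4 of 9 members were called in replete monoculture, all higher (42.7% of all genes, 21.5% higher and 21.1% lower). In deprived monoculture 7 were called, 4 higher and 3 lower (73.6%, 37.4% higher and 36.3% lower). In replete coculture 6 were called, 3 higher and 3 lower (43.9%, 21.8% higher and 22% lower), and in deprived coculture 6, with 4 higher and 2 lower (53.6%, 26.3% higher and 27.4% lower). Fth1 and Slc40a1 were called in all 4, higher in 3 and lower in deprived monoculture, and Aco1 was higher in all 4. Slc40a1 is part of these and the following counts although it entered the test only through its highest groups. Its call in deprived monoculture was lost with quantile normalization (−0.07, limma adjusted p = 0.404).

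On withdrawal, 8 members were called in KO monoculture, 3 higher and 5 lower (70.8% of all genes, 36.2% higher and 34.5% lower). In KO coculture 3 were called, 2 higher and 1 lower (29.9%, 15.5% higher and 14.4% lower). Among WT cells limma called 0 members in monoculture (1.63%, 1.37% higher and 0.257% lower) and 0 in coculture (0.738%, 0.439% higher and 0.298% lower). At an unadjusted p under 0.05 there were 2 and 1 members, and limma's voom on recovered reads also called 0 in each.

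Coculture called 5 members in replete WT cells, 1 higher and 4 lower (31.2% of all genes, 16.3% higher and 14.9% lower). It called 5 in deprived WT cells, again 1 and 4 (28.1%, 14.9% higher and 13.1% lower). In replete KO cells 6 were called, 1 higher and 5 lower (40%, 20.1% higher and 19.9% lower), and in deprived KO cells 8, with 4 higher and 4 lower (71.3%, 35% higher and 36.3% lower). Mt1 was the member that rose in each of the 4.

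The withdrawal effect differed between genotypes for 8 members in monoculture, 3 with a positive and 5 with a negative difference (61.2% of all genes, 31.4% and 29.8%). In coculture it differed for 2, 1 in each direction (14.4%, 8.06% and 6.38%). Between KO culture types it differed for 7, 4 positive and 3 negative (57.7%, 27.9% and 29.8%). The coculture effect in replete medium differed between genotypes for 2, both negative (10.4%, 4.98% positive and 5.39% negative). Over the 4 comparisons of a kind, 23 of 36 member tests were called for genotype (53.4% of all genes), 11 for withdrawal (25.8%), 24 for coculture (42.6%) and 19 for the interactions (35.9%). Where so large a share of all genes is called, the number of called members is not a result about these genes. The median change of the 9 members lay between −0.20 and 0.14 in the 12 comparisons, against −0.02 to 0.00 for all genes.

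**Figure D4:**
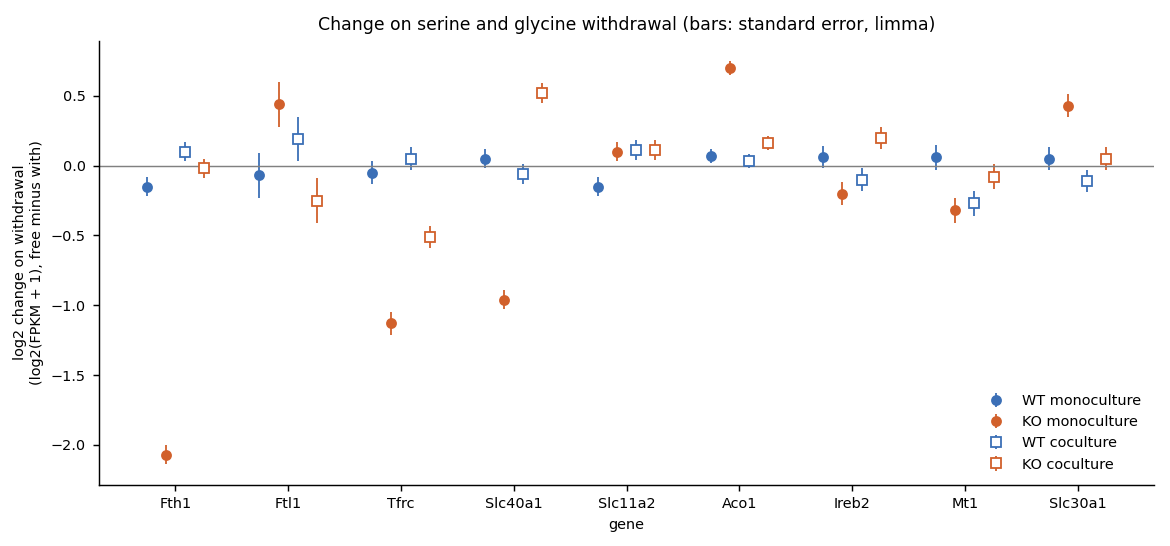
Change on serine and glycine withdrawal (log2(FPKM + 1), deprived minus replete, bars for the SE from limma) of each tested member in WT and KO cells, alone (circles) and beside hepatocytes (squares). KO monoculture lies furthest from 0 for Fth1 (−2.07), Tfrc (−1.13) and Aco1 (0.70), and Slc40a1 turns from −0.96 alone to 0.52 in coculture.

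The order of the group levels also differed between members. For Fth1 the sequence of means was replete KO monoculture, replete KO coculture, deprived KO coculture, replete WT monoculture, deprived WT monoculture, deprived WT coculture, replete WT coculture and deprived KO monoculture; of the neighbours only the KO cocultures overlapped. For Tfrc the first 5 places overlapped from neighbour to neighbour, and KO cocultures and deprived KO monocultures followed apart. Mt1 ran from KO to WT cocultures, then KO and WT monocultures, with overlap among the highest 3 groups and between the WT monocultures. In Slc11a2 the 4 monoculture groups overlapped from neighbour to neighbour, and the 4 coculture groups followed apart from each other.

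Genes with a like pattern were looked up by Pearson's r of the mean log2 level over the 8 groups, among 6363 genes with a mean of at least 5 FPKM. With 8 points and so many candidates high values arise readily, so these are descriptions only. Fth1 was nearest to Slc5a3 (r = 0.979), Tfrc to Pycr1 (r = 0.987), Slc11a2 to Trap1 (r = 0.986) and Mt1 to Npepps (r = 0.990). The closest match was between Aco1 and Iscu (r = 0.996), which encodes a scaffold for iron-sulfur clusters. Ftl1 was nearest to Pias4 (r = 0.983), Slc40a1 to Stk38 (r = 0.973), Slc30a1 to Ubp1 (r = 0.988) and Ireb2 to Senp6 (r = 0.964). Between members the highest value was 0.89, for Fth1 and Slc40a1, and the lowest was −0.90, for Slc11a2 and Mt1; all points share their libraries.

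Other genes of iron handling were read from a list of 25, of which 13 were tested. On withdrawal 2 rose and 6 fell in KO monoculture (70.8% of all genes were called there, 36.2% higher and 34.5% lower) and 4 rose and 1 fell in KO coculture (29.9%, 15.5% higher and 14.4% lower), with medians of −0.32 and 0.08 against 0.00 and −0.00 for all genes. The reductase gene Steap1 rose in KO monoculture from 117 ± 9.06 to 187 ± 6.7 FPKM (0.68 ± 0.06, limma adjusted p = 2.79e-09). Fbxl5, the iron sensor that marks the Ireb2 protein for degradation, fell from 13.2 ± 2.83 to 6.63 ± 0.51 FPKM (−0.88 ± 0.11, adjusted p = 4.72e-07). Ncoa4, the receptor that takes ferritin to lysosomes, rose there (0.53 ± 0.06, adjusted p = 4.4e-07). Ncoa4 also rose in coculture in all 4 settings, by 0.67 and 0.65 in replete and deprived WT cells and by 0.68 and 0.35 in replete and deprived KO cells (adjusted p = 8.79e-08, 1.67e-07, 5.74e-08 and 6.53e-05). Slc25a37, the mitochondrial iron importer mitoferrin, fell in deprived WT coculture from 12 ± 0.217 to 7.13 ± 0.478 FPKM (−0.68 ± 0.06, adjusted p = 1.08e-08). Coculture raised 1 of the 13 and lowered 5 in replete WT cells (31.2% of all genes called), and raised 6 and lowered 1 in deprived KO cells (71.3%).

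Genes of iron-sulfur cluster assembly numbered 22 tested of 23. On withdrawal in KO monoculture 11 rose and 8 fell (median 0.31; 70.8% of all genes called), and in KO coculture 2 rose and 4 fell (median −0.08; 29.9%). Lyrm4, a partner of the cysteine desulfurase, rose in KO monoculture from 4.97 ± 0.723 to 15.2 ± 1.08 FPKM (1.44 ± 0.14, limma adjusted p = 1.28e-08). Bola3, which helps deliver clusters to mitochondrial proteins, rose as well (1.36 ± 0.10, adjusted p = 5.1e-10). The co-chaperone gene Hscb fell from 21.3 ± 0.455 to 8.91 ± 0.656 FPKM (−1.17 ± 0.10, adjusted p = 4.33e-09). In coculture 1 of the 22 rose and 5 fell in replete WT cells (31.2% of all genes called), and 6 rose and 12 fell in deprived KO cells (median −0.40; 71.3%).

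Of the 21 genes of haem synthesis and breakdown 18 were tested. Hmox1, haem oxygenase 1, frees iron from haem. It rose in coculture from 74.6 ± 1.9 to 205 ± 4.33 FPKM in replete WT cells (1.45 ± 0.09, limma adjusted p = 1.42e-10) and from 71.5 ± 0.86 to 174 ± 2.74 in deprived ones (1.27 ± 0.09, adjusted p = 1.15e-09). In KO cells it rose from 126 ± 16.7 to 320 ± 2.92 FPKM in replete and from 42.9 ± 4.15 to 232 ± 31.1 in deprived medium (1.35 ± 0.09 and 2.41 ± 0.09, adjusted p = 4.09e-10 and 1.03e-14). Withdrawal lowered Hmox1 in KO monocultures (−1.53 ± 0.09, adjusted p = 1.08e-11), as it did Fth1. It also lowered Hmox1 in KO cocultures (−0.47 ± 0.09, adjusted p = 0.000702), where the change of Fth1 was not called (−0.02 ± 0.07, adjusted p = 0.853). Of the 18 genes coculture raised 1, Hmox1, in replete WT, deprived WT and replete KO cells, and lowered 7, 2 and 6 (31.2%, 28.1% and 40% of all genes called). In deprived KO cells it raised 8, Hmox1 among them, and lowered 7 (71.3%). On withdrawal in KO monoculture 7 of the 18 rose and 9 fell (70.8% of all genes called), with Uros up (0.87 ± 0.13, adjusted p = 5.04e-06) and Blvrb, a biliverdin reductase, down (−1.68 ± 0.11, adjusted p = 8.15e-11).

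Zinc and copper handling had 21 tested genes of 32. Atp7b, a copper exporter, rose in coculture in all 4 settings, from 0.452 ± 0.103 to 5.3 ± 0.459 FPKM in replete WT cells (2.12 ± 0.07, limma adjusted p = 1.68e-14). The changes elsewhere were 1.80 ± 0.07 in deprived WT, 1.88 ± 0.07 in replete KO and 2.14 ± 0.07 in deprived KO cells (adjusted p = 2.91e-13, 1.17e-13 and 3.33e-15). Means of Atp7b in the monoculture groups were only 0.0208 to 0.59 FPKM. It thus passed the filter only through its cocultures, and its calls are given as a description. Mtf1, the zinc-sensing activator of metallothionein genes, rose on withdrawal in KO monocultures from 3.78 ± 0.342 to 6.47 ± 0.368 FPKM (0.65 ± 0.06, adjusted p = 2.45e-08), where Mt1 fell. Slc39a13, a zinc carrier of the secretory pathway, fell there (−1.06 ± 0.09, adjusted p = 2.11e-09). In all, 8 of these 21 genes rose and 5 fell on that withdrawal (70.8% of all genes called), and coculture raised 4 and lowered 4 in replete WT cells (31.2%). Withdrawal in WT cells called 0 of the 74 genes of these 4 lists in monoculture or coculture with limma; 2 and 10 had an unadjusted p under 0.05, and voom also called 0.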

How the data were processed

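Total RNA of HY19636 cells was sequenced in 24 libraries, 8 groups of 3 by the labels. Per the submitters' processing notes, reads were aligned with HISAT2 to mouse GRCm38 (mm10); no source used here gives its version, the counter, the annotation or the use of strand. The authors deposited FPKM for 54532 genes in 1 table. FPKM times gene length gave whole reads (100% of values within 0.01 read), 15740081 to 23479425 per library, with each library scaled to 0.969 to 1.068 times its own total. No pair of replicate libraries was identical (0 pairs; chi-square per degree of freedom 3.07 to 71.38).

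Genes at FPKM 1 or more in 3 or more libraries (12061) were tested as log2(FPKM + 1) in 1 model with a mean for each of the 8 groups (16 residual degrees of freedom, limma 3.58.1, R 4.3.3, mean-variance trend, two-sided, Benjamini-Hochberg adjustment, threshold 0.05), for 12 comparisons and 4 interactions. The members and the lists were chosen with earlier results of these data known. The text names all 10 members, their nearest genes in pattern, and list genes among the 2 largest called rises and 2 largest called falls with ranges apart, per list and comparison. Ncoa4 is also given for coculture in deprived KO cells, where it was not among these, to complete its 4 coculture settings.

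Same-numbered replicates deviated together (every pair's correlation over 0.1, at 0.11 to 0.40) in 1 of 12 comparisons, withdrawal in KO monocultures. Alternatives were another pseudocount (0.1), filters, scalings, voom on recovered reads, a fit without the trend, the replicate block, fits of only the groups compared, and each library left out.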

Additional observations from a re-analysis of the deposited data

Results flagged for a closer look

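Each of the following is an effect whose size differed between settings by a test of the difference (limma interaction, adjusted p under 0.05), on the log2(FPKM + 1) scale. The withdrawal effect in monoculture, KO minus WT, differed for Fth1 (−1.92), Tfrc (−1.08), Slc40a1 (−1.01), Aco1 (0.63), Mt1 (−0.38), Slc30a1 (0.38), Ireb2 (−0.26) and Slc11a2 (0.25). The last 2 were close to the threshold (adjusted p = 0.0485 and 0.0312). The Ireb2 call was lost with the replicate block (adjusted p = 0.0579), and it ended without any of 7 libraries in turn: replicate 1 or 2 of the replete WT, 1 or 3 of the deprived WT, 1 of the replete KO and 2 or 3 of the deprived KO monocultures (0.0686 to 0.142). The Slc11a2 call was lost without any of 6 libraries in turn: replicate 1 or 2 of the replete WT, 3 of the deprived WT, 1 of the replete KO and 2 or 3 of the deprived KO monocultures (0.0623 to 0.0992). It was also lost with no low-value filter, with voom and with a fit of only these groups (0.0546, 0.0847 and 0.101). The Ireb2 call was lost too with no low-value filter, without the trend and with a fit of only these groups (0.088, 0.0527 and 0.115).

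In coculture the same difference was seen for Tfrc (−0.56) and Slc40a1 (0.58). Within KO cells the withdrawal effect in coculture minus that in monoculture was 2.05 for Fth1, 1.48 for Slc40a1, 0.63 for Tfrc, 0.40 for Ireb2, −0.38 for Slc30a1, −0.53 for Aco1 and −0.69 for Ftl1. The value for Ftl1 was −0.52 and not called (adjusted p = 0.0556) without replicate 2 of the deprived KO cocultures. With a fit of only these groups the Ftl1 call was lost as well (adjusted p = 0.0856). In replete medium the coculture effect, KO minus WT, differed for Mt1 (−0.53) and Slc11a2 (−0.35). Slc40a1 entered the test only through its highest groups.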

How the results depend on the processing

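Called members numbered 23 over the 4 genotype comparisons, 11 over withdrawal, 24 over coculture and 19 over the interactions, and stayed within 1.5 times of that under every alternative run: 21 to 25, 9 to 13, 22 to 26 and 17 to 23 with 1 library left out, and 17 to 26, 8 to 13, 19 to 25 and 15 to 21 otherwise. Of 2425 alternatives for 144 member values, 2322 stayed called or stayed uncalled, 69 lost the call, 34 gained it, and 0 turned a called value round. Among the 2322, 47 that were called in neither setting changed sign. With the replicate block over all groups the Aco1 change in replete KO coculture (−0.13, adjusted p = 0.0519) and the Ireb2 interaction (−0.26, adjusted p = 0.0579) lost their calls, and no other member's call changed. A replicate block within withdrawal of KO monocultures, chosen after seeing the data, kept the 8 member calls. There the Ftl1 change was 0.44 (adjusted p = 0.034) and that of Fth1 −2.07. Of all genes that block called 8021, against 7175 in the same groups without it. Voom on recovered reads moved the median of all genes in coculture comparisons, from −0.02 to −0.11 in replete WT cells, and the share of rises among called genes from 52.3% to 35.6%; in deprived WT cells it went from 53.2% to 34.4% and in replete KO cells from 50.4% to 37.9%. The stricter filter left no value for Slc40a1 or Slc30a1. At 57 reads, Mt2 was too shallow for differences between groups to be read beyond counts.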
